A study of Mus musculus with 6 samples.

Results

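The 34 genes described here are markers and working parts of macrophages and related myeloid cells, and were followed in whole kidneys of control mice and of mice labelled as Nampt knockouts. They were taken by name, with earlier results of these data known, and no threshold on a value was part of the rule. The array names 21154 genes in all. RefSeq accessions named 44 probes for 33 of them, and no probe was named for Clec7a. Probes of Cd163 and of Spi1 were not well above background on any of the 6 arrays, so 31 members could be tested, 30 of them well above background on all 6 arrays.

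Total RNA of whole kidneys from male C57BL/6J mice was hybridised to single-colour Agilent arrays, 1 array per animal. The groups were 3 mice labelled as controls and 3 mice labelled as iNampt conditional knockouts. Nampt encodes the rate-limiting enzyme of NAD salvage, and the series title places the work in the renal proximal tubules and in diabetic nephropathy. The labels give no Cre driver, deleted exon, control allele, age or diabetic treatment. Levels are log2 signals relative to the 75th percentile of all probes on the same array, so 0 is the 75th percentile and each unit is a doubling. Nampt itself read 2.78, 2.59 and 2.65 in the controls, against 1.80, 1.502 and 1.53 in the knockouts. It fell by 1.06 ± 0.099 (SE), with a limma adjusted p of 0.0431, and stayed well above background on all 3 knockout arrays. That call was lost with quantile normalisation (adjusted p = 0.0579), with the replicate block (0.0891), with the slide row blocked (0.0733) and without control 1 (0.0731), control 2 (0.166), control 3 (0.179), knockout 2 (0.167) or knockout 3 (0.180). Where its probe lies relative to the deletion was not analysed here. Nephron markers fixed for the check of the tissue were all measured, 12 of 12, and none passed the test. All 6 arrays shared 1 slide and 1 scan. The 3 controls and knockout 1 lay in the first row of the slide and knockouts 2 and 3 in the second. The faintest signal called well above background was between 18.5 and 20.9 units in the first row and 29.6 and 32.2 units in the second.

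Kidney macrophages form a network in the interstitium around the tubules. They depend on the receptor CSF1R, engulf debris and antibody-coated particles through Fc and scavenger receptors, and digest them in lysosomes. Injured kidney also receives monocytes through CCR2, and macrophages that take up lipid and dying cells are known for TREM2, a receptor that signals through the adaptor TYROBP. A signal from whole kidney cannot tell apart more cells of a type and more RNA per cell.

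Of the 31 members tested, 28 were above 0 in knockout minus control and 3 below, while 47.1% of all 15309 genes tested were above 0. The median difference was 0.28 for the members and -0.01 for all genes, on the log2 scale. After Benjamini-Hochberg adjustment over all genes 1 member passed, Siglec1, and it was higher; 0.170% of all genes passed in either direction. At an unadjusted limma p under 0.05 there were 15 members, all higher, where 6.69% of all genes were called in that direction. The 3 knockouts lay above the 3 controls in 14 members (9.04% of all genes) and below them in 0 (10.5% of all genes). Since the members were not chosen blind to these data, the counts describe the list.

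**Figure D1:**
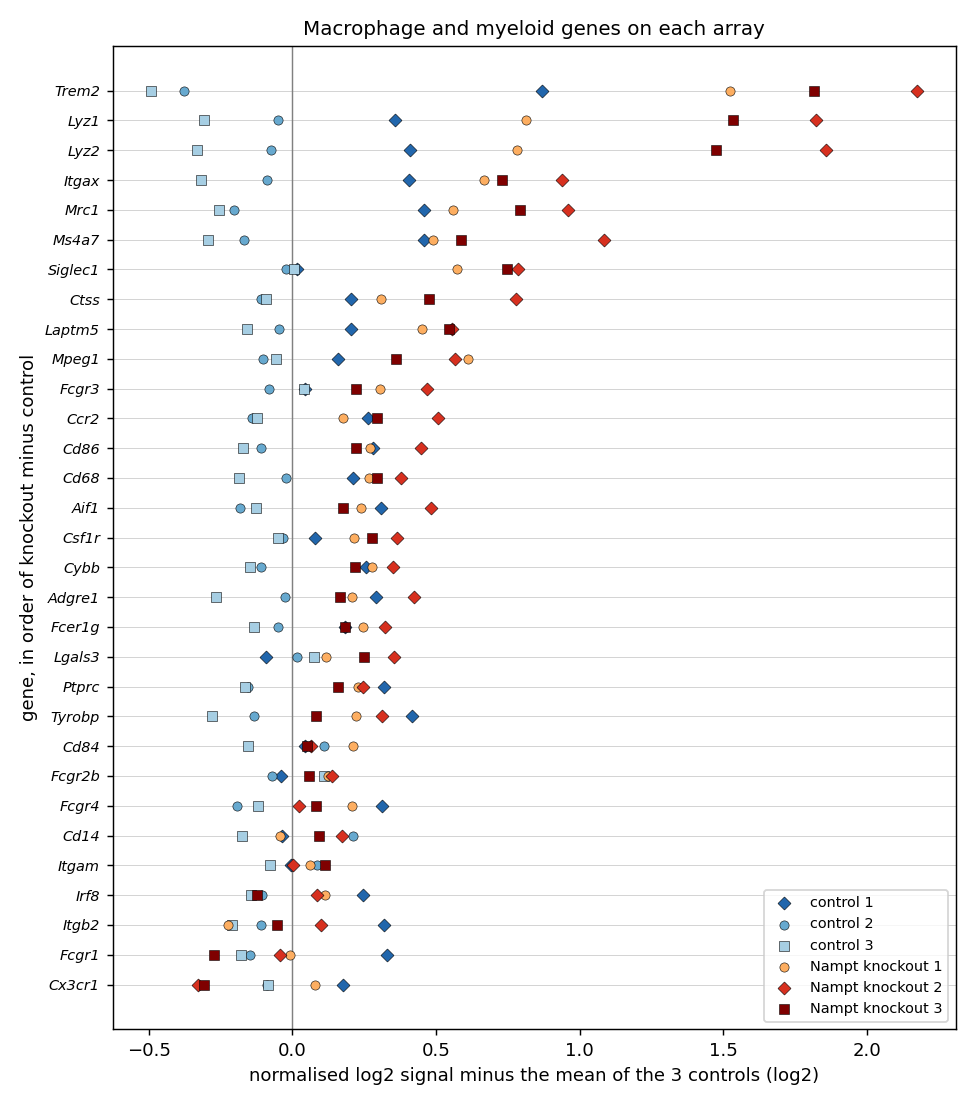
Normalised log2 signal of the 31 tested genes (rows) on each of the 6 arrays, minus the mean of the 3 controls (horizontal axis, log2); blue points are controls and orange to dark red points are knockouts. In the upper rows the 3 knockouts lie to the right of the controls, while control 1 (dark blue diamond) lies to the right of controls 2 and 3 in 26 of 31 rows.

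The gene with the largest difference was Trem2, which encodes the lipid- and debris-sensing receptor named above. Controls 1, 2 and 3 read -2.82, -4.07 and -4.18, and knockouts 1, 2 and 3 read -2.16, -1.51 and -1.87. All 3 knockouts were above all 3 controls, but control 1 stood 1.31 above the mean of the other two and was closer to knockout 1 than to them. The means were -3.69 ± 0.76 and -1.85 ± 0.33 (SD, n = 3 each), a difference of 1.84 ± 0.39 (SE), or 3.58-fold, which did not pass over all genes (limma adjusted p = 0.189). Without control 1 the difference was 2.28 and passed (adjusted p = 0.0454), and with normexp and quantile normalisation it was 0.91 (adjusted p = 0.142). Over all 17 other settings its adjusted p ran from 0.0345 to 0.477.

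The lysozymes, which cut bacterial cell walls, followed. Lyz2, the myeloid form, was at -0.52, -1.004 and -1.26 in the controls and at -0.15, 0.93 and 0.55 in the knockouts. Knockout 1 lay nearest the controls, and the groups did not overlap. The difference was 1.37 ± 0.32 (SE; adjusted p = 0.208), or 2.59-fold. Lyz1, the closely related form best known from Paneth cells, was at 1.6, 1.19 and 0.93 in the controls and at 2.06, 3.07 and 2.78 in the knockouts. Its order of arrays was the same as that of Lyz2, with a difference of 1.39 ± 0.30 (SE; adjusted p = 0.188). The 2 genes are neighbours on chromosome 10 and near-identical copies, so RNA of one may bind the probe of the other, and they are not 2 independent measurements. With the slide row blocked, where knockout 1 alone is set against controls of its own row, Lyz2 was at 0.78 (adjusted p = 0.498) and Lyz1 at 0.81 (adjusted p = 0.438).

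The letters before the starts of 4 members with large differences are shown here to let Lyz1 and Lyz2 be compared, and because Trem2 and Mrc1 hold a motif of PU.1, the myeloid ETS factor that Spi1 encodes. Each window has the 250 bases before the start in the RefSeq promoter table of GRCm38.p6, read 5′ to 3′ on the gene's strand. Trem2 lies at chr17:48346151-48346400 (+), Lyz1 at chr10:117292869-117293118 (-), Lyz2 at chr10:117282273-117282522 (-) and Mrc1 at chr2:14229164-14229413 (+). Capitals mark matches to any of the 3 motifs spelled out after the sequences.
Trem2: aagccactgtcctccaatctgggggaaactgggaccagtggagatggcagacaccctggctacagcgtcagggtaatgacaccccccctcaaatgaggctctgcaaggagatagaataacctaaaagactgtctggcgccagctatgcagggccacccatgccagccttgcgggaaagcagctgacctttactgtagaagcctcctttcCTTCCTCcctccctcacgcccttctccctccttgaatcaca
Lyz1: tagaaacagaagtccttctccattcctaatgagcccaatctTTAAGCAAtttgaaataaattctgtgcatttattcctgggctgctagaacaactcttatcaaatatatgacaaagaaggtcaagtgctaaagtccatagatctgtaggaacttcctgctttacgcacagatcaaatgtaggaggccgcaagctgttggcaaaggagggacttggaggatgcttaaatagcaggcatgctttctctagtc
Lyz2: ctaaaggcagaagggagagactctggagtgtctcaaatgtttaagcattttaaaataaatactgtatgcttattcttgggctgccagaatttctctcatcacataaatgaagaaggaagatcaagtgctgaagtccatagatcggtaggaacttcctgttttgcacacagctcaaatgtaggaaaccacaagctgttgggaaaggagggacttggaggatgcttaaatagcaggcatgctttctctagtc
Mrc1: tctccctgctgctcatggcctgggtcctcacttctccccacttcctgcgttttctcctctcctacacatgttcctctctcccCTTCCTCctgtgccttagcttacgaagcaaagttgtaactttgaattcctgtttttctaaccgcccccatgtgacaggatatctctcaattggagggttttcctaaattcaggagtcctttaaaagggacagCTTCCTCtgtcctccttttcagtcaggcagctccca
The Lyz1 and Lyz2 windows were identical at 200 of 252 aligned columns, or 79.4%. The motifs were searched on both strands, and their matches may overlap. GAGGAAG, a short core of the PU.1 motif, was in 8 of the 31 windows found for 26 members, or 25.8%, and in 10.6% of all 32851 windows of that length. The members holding it were Fcgr1, Fcgr3, Fcgr4, Itgam, Laptm5, Mrc1 and Trem2. Their differences were -0.11, 0.33, 0.10, 0.06, 0.52, 0.77 and 1.84 in that order. The windows of Lyz1, Lyz2, Itgax and Ms4a7, with differences of 1.39, 1.37, 0.78 and 0.72, did not hold it. The ETS-IRF composite motif, bound by PU.1 with an IRF factor and read here as GGAA and GAAA with 2 bases between them, was in 3 member windows (9.68%), those of Clec7a and Fcgr2b, and in 2.30% of all windows. TTGCNNAA, a form of the C/EBP motif, was in 4 member windows (12.9%) and in 9.56% of all windows. Clec7a and Fcgr3 had overlapping windows, so 1 match could count more than once. By gene the 3 motifs were in 7, 2 and 3 of 26 members, and the share of all genes was not counted. These are matches of letters and were not tested as binding sites.

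The other lysosomal and phagocytic effectors differed less. Ctss, the protease cathepsin S, was at 2.42, 2.11 and 2.13 in the controls and 2.53, 2.999 and 2.70 in the knockouts, a difference of 0.52 ± 0.15 (SE; adjusted p = 0.262). Laptm5, a lysosomal membrane protein of blood cells, was at -1.15, -1.40 and -1.51 and then at -0.90, -0.80 and -0.81, a difference of 0.52 ± 0.10 (adjusted p = 0.162). Mpeg1, the pore-forming protein perforin-2, was at 1.25, 0.99 and 1.03 and then at 1.704, 1.66 and 1.45, a difference of 0.51 ± 0.10 (adjusted p = 0.164). In each of these 3 genes control 1 was the highest control and still lay below every knockout by the probe used. A second probe of Laptm5 gave 0.58. That of Mpeg1, which read 4.99 lower on average, gave 0.34, with control 1 (-3.46) above knockout 1 (-3.74). With the slide row blocked Ctss was at 0.31.

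Cd68, a glycoprotein of macrophage lysosomes, was at 0.14, -0.09 and -0.25 in the controls and 0.20, 0.31 and 0.23 in the knockouts, a difference of 0.31 ± 0.11 (adjusted p = 0.324). Control 1 was within 0.1 of the lowest knockout. Lgals3, the lectin galectin-3, which tubular cells also make, was at 3.65, 3.76 and 3.82 and then at 3.86, 4.10 and 3.99, a difference of 0.24 ± 0.08 (adjusted p = 0.319). It was the 1 member of the 31 in which control 1 was the lowest control, and with the slide row blocked its difference was 0.12. Cybb, the catalytic subunit of the phagocyte oxidase, was at -3.41, -3.78 and -3.82 and then at -3.39, -3.32 and -3.45, so that control 1 lay among the knockouts. All 8 members of this group were above 0 (47.1% of all genes), and 7 of them were higher without overlap (9.04% of all genes). Those 7 hold both Lyz1 and Lyz2, which are not independent. The group's median difference was 0.51.

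Among scavenger and lectin receptors, Siglec1, the sialic-acid receptor sialoadhesin, rose. Its controls were close together at -5.27, -5.31 and -5.28, and the knockouts were at -4.71, -4.50 and -4.54. The difference of 0.70 ± 0.07 (SE; adjusted p = 0.0431), or 1.63-fold, was the 1 call among the members. The gene was close to the detection limit, which lay at -5.48, -5.55 and -5.42 in the controls and at -5.31, -4.72 and -4.64 in the knockouts, and its probe was well above background on 3 control and 2 knockout arrays. The call was lost with normexp and quantile normalisation (0.19, adjusted p = 0.288), with the slide row blocked (0.57, adjusted p = 0.0756), with the replicate block (adjusted p = 0.172) and with a trended and robust variance (adjusted p = 0.197). It was also lost without control 1 (adjusted p = 0.0793), control 2 (0.193), control 3 (0.179), knockout 2 (0.167) or knockout 3 (0.198). A second Siglec1 probe, well above background on 1 control array, was at -0.49.

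Mrc1, the mannose receptor CD206, was at -1.26, -1.92 and -1.97 in the controls and -1.16, -0.75 and -0.92 in the knockouts. Control 1 was 0.10 below knockout 1 and 0.69 above the mean of controls 2 and 3. The difference was 0.77 ± 0.21 (SE; adjusted p = 0.259). Adgre1, which encodes the macrophage marker F4/80, was at -0.40, -0.71 and -0.95 and then at -0.48, -0.26 and -0.52, and the groups overlapped through control 1 (0.27 ± 0.15, adjusted p = 0.540). Cd14, the co-receptor for endotoxin, was at 0.04, 0.28 and -0.10 and then at 0.03, 0.25 and 0.17. Its groups overlapped and its difference was 0.08 ± 0.11, a value that fell below 0 with slide row as a block (-0.04), with array weights (-0.04) and without control 3 (-0.01). Cd163, the haemoglobin scavenger receptor, was not well above background on any array and has no fold here.

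The integrins split. Itgax, which encodes CD11c of dendritic cells and some macrophages, was at -0.87, -1.37 and -1.60 in the controls and -0.61, -0.34 and -0.55 in the knockouts. The groups did not overlap, and the difference was 0.78 ± 0.19 (SE; adjusted p = 0.225), or 1.72-fold. Itgb2, the beta chain shared by the leukocyte integrins, was at -1.14, -1.57 and -1.67 and then at -1.68, -1.36 and -1.51. Control 1 was above every knockout, and the difference was -0.06 ± 0.16 (adjusted p = 0.911), with a sign that turned without control 1 (0.10), without knockout 1 (0.02) and with array weights (0.03). Itgam, which encodes CD11b, was at 5.05, 5.14 and 4.98 and then at 5.12, 5.06 and 5.17 by the probe used, with overlap and a difference of 0.06 ± 0.06. The other 2 Itgam probes read 8.32 and 8.39 lower on average, with differences of 0.02 and -0.06, so the 3 probes differed widely in level while none gave a difference above 0.06.

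**Figure D2:**
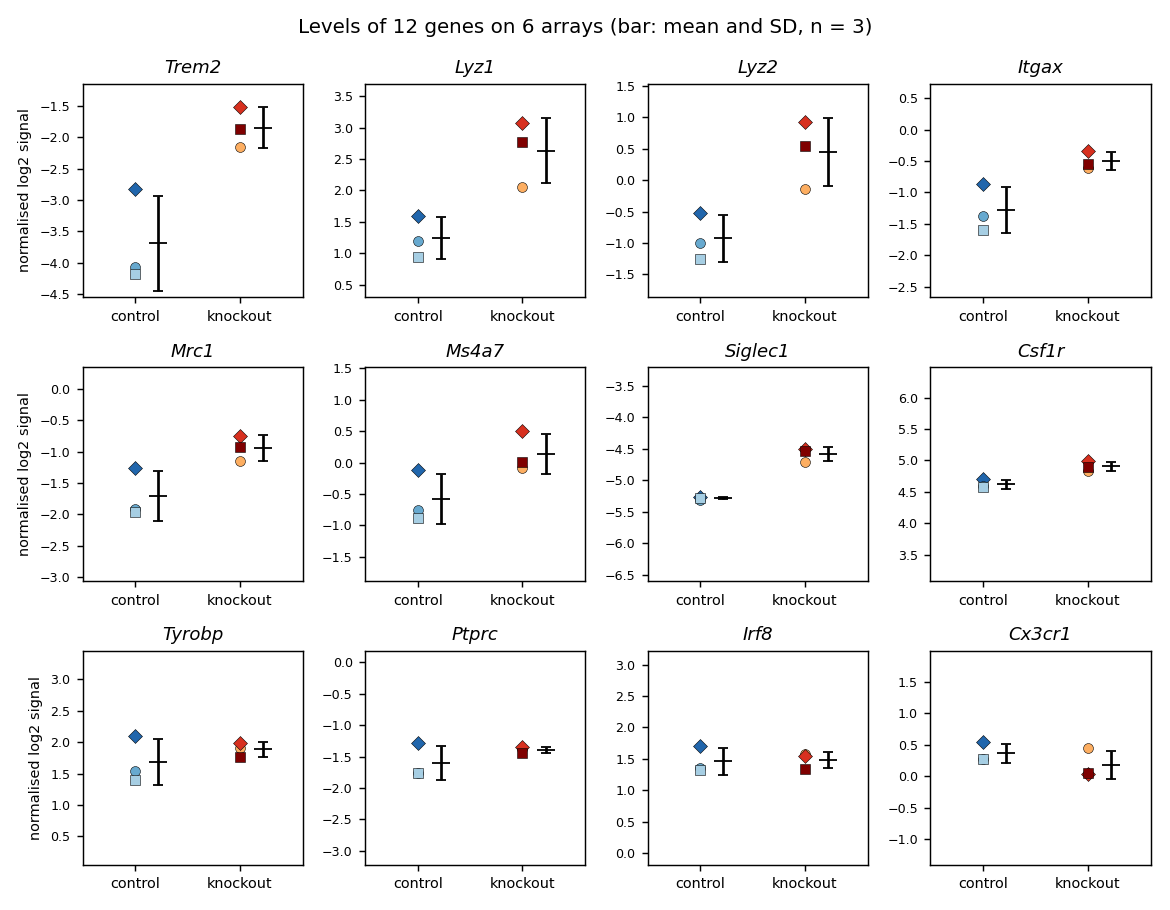
Normalised log2 signal (vertical axes, each spanning 3.4 log2 units) of 12 genes in control and knockout kidneys; points are arrays with the symbols of the plot of all members (diamond, circle and square), and bars are the mean and SD of 3 arrays. Trem2, Lyz1, Lyz2, Itgax and Mrc1 separate the groups, while Tyrobp, Ptprc, Irf8 and Cx3cr1 overlap, with control 1 the highest array of each.

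The receptors for growth factor and chemokines did not move alike. Csf1r was at 4.70, 4.59 and 4.57 in the controls and 4.84, 4.98 and 4.90 in the knockouts, without overlap, a difference of 0.28 ± 0.06 (SE; adjusted p = 0.203). Its other probes, which read 4.71 and 4.24 lower on average, gave 0.30 and 0.07. Ccr2, the receptor of inflammatory monocytes, was at -2.37, -2.77 and -2.76 and then at -2.46, -2.13 and -2.34, with control 1 inside the knockout range (0.33 ± 0.14, adjusted p = 0.408). Cx3cr1, the fractalkine receptor carried by resident kidney macrophages, was at 0.54, 0.28 and 0.28 and then at 0.44, 0.04 and 0.06. It had the lowest difference of the 31 members, -0.19 ± 0.14 (adjusted p = 0.640). All 3 of its probes were below 0, from -0.29 to -0.19, and with the slide row blocked the value was 0.08, an estimate carried by knockout 1 alone.

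Fc receptors bind the constant part of antibodies. Fcgr3, an activating receptor, was at -0.52, -0.64 and -0.52 in the controls and -0.25, -0.09 and -0.34 in the knockouts, without overlap (0.33 ± 0.08, adjusted p = 0.219). Fcgr2b, the inhibitory receptor, was at 1.71, 1.68 and 1.87 and then at 1.88, 1.89 and 1.81, with overlap (0.11 ± 0.065, adjusted p = 0.565). The activating receptors Fcgr1 and Fcgr4 were at -0.11 ± 0.16 and 0.10 ± 0.14, and control 1 was above every knockout in both. For Fcgr1 the difference turned to 0.06 without control 1. The Fcgr genes are related in sequence, and cross-binding between them was not tested.

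The adaptors that carry the signals of these receptors overlapped between groups. Fcer1g, the common Fc receptor gamma chain, was at 1.80, 1.57 and 1.49 in the controls and 1.86, 1.94 and 1.80 in the knockouts (0.25 ± 0.09, adjusted p = 0.359), with control 1 at the level of knockout 3. Tyrobp, the partner of TREM2, was at 2.09, 1.55 and 1.40 and then at 1.90, 1.99 and 1.76 (0.20 ± 0.19, adjusted p = 0.710). Control 1 had the highest Tyrobp level of all 6 arrays.

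Of the remaining surface and nuclear genes, Ms4a7, a membrane protein of macrophages, was at -0.12, -0.75 and -0.88 in the controls and -0.09, 0.50 and 0.01 in the knockouts. Control 1 and knockout 1 were 0.03 apart, and the difference was 0.72 ± 0.25 (SE; adjusted p = 0.328). Ptprc, which encodes CD45 of all leukocytes, was at -1.28, -1.76 and -1.77 and then at -1.37, -1.35 and -1.44. Control 1 was again the highest array, and the difference was 0.21 ± 0.14 (adjusted p = 0.601). The co-stimulatory ligand gene Cd86 was at 0.31 ± 0.14 and the SLAM family gene Cd84 at 0.11 ± 0.09, both with overlap. A second Cd84 probe, well above background on 1 control and 2 knockout arrays, gave 0.84. Irf8, a factor needed for monocytes and dendritic cells, was at 1.71, 1.36 and 1.32 and then at 1.57, 1.54 and 1.34, a difference of 0.02 ± 0.13 (adjusted p = 0.957). Aif1, the actin-binding protein IBA1, was at 1.06, 0.57 and 0.62 and then at 0.99, 1.23 and 0.92 (0.30 ± 0.15, adjusted p = 0.491). Spi1, the gene of PU.1, was not well above background on any array.

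The controls themselves were not alike for these genes. Control 1 was the highest of the 3 controls in 26 of 31 members (29.1% of all genes) and lay 0.39 above the mean of controls 2 and 3 by the median member. For all genes that median was -0.03. Several lists read below shared this trait. Control 1 was highest in 7 of 7 class II, 6 of 7 dendritic cell and 11 of 13 T and NK cell genes. It was so in 12 of 14 signalling, 7 of 8 monocyte chemokine, 7 of 8 adipocyte and 6 of 8 fibroblast genes. For neutrophil, endothelial and nephron genes the counts were 4 of 8, 3 of 8 and 2 of 12. The median SD of the members was 0.22 among controls and 0.13 among knockouts, against 0.09 and 0.08 for all genes tested. Control 1 was at or above the lowest knockout in 14 members (70.0% of all genes). It was above every knockout in 7, namely Cx3cr1, Fcgr1, Itgb2, Irf8, Fcgr4, Tyrobp and Ptprc (26.2% of all genes). Relative to the mean of the 3 controls, controls 1, 2 and 3 had member medians of 0.26, -0.09 and -0.15, and knockouts 1, 2 and 3 had medians of 0.24, 0.38 and 0.22. Knockout 2 was the highest knockout in 24 members (38.1% of all genes).

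The choice of controls set the size of most differences. By the median member the knockouts lay 0.41 above controls 2 and 3 and 0.10 above control 1. These values share the 3 knockouts. All 3 knockouts were above controls 2 and 3 in 23 of 31 members (15.0% of all genes). Of the 17 members with overlapping groups, control 1 reached the knockout range in 14. In 9 of those 14 the knockouts were above both other controls, and in the other 5 (Cx3cr1, Cd14, Fcgr1, Itgb2 and Irf8) the groups overlapped without control 1 too. Siglec1 and Fcgr3, whose controls lay close together, were at 0.71 and 0.35 against controls 2 and 3 and 0.69 and 0.29 against control 1.

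**Figure D3:**
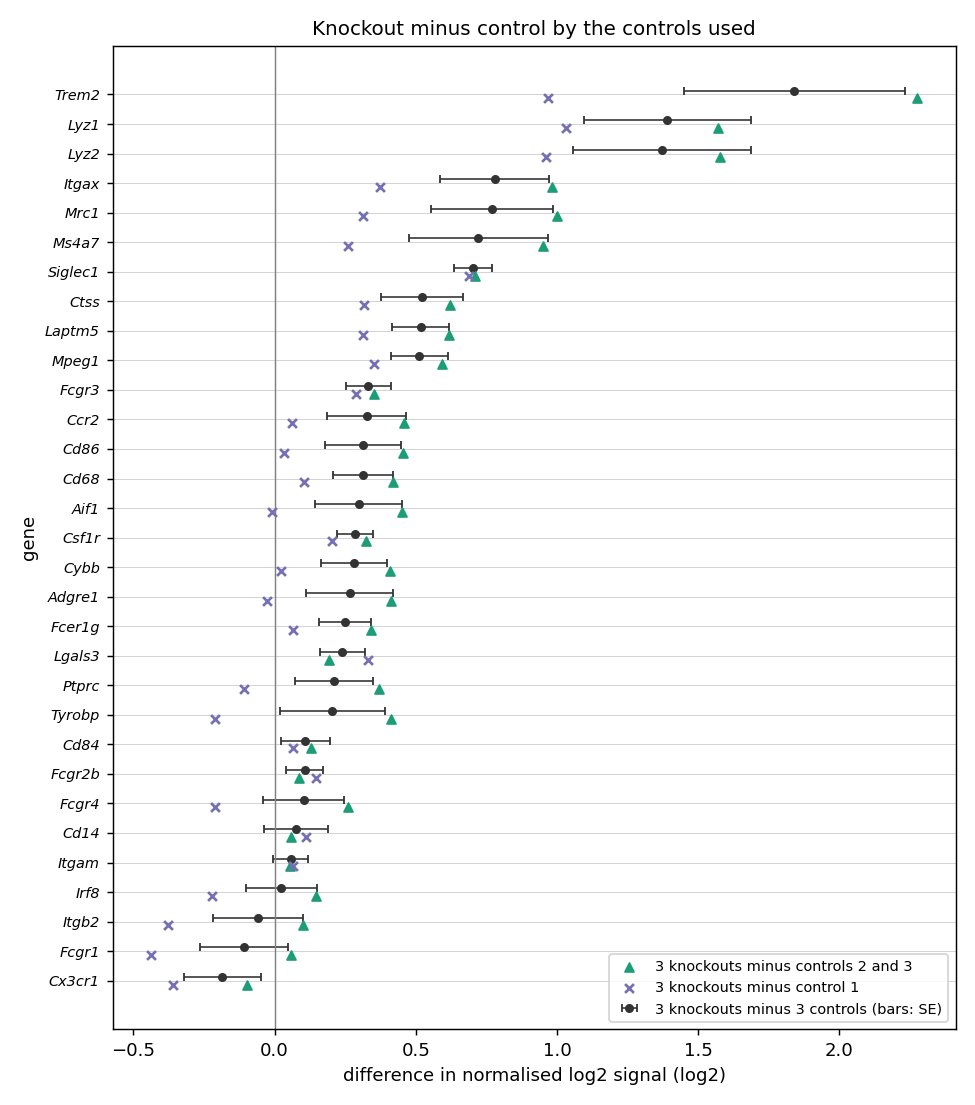
Knockout minus control in normalised log2 signal (horizontal axis) for the 31 tested genes (rows) with all 3 controls (black, bars are SE), with controls 2 and 3 (green triangles) and with control 1 alone (purple crosses). The crosses lie to the left of the triangles in most rows, and in the rows from Ptprc to Cx3cr1 several crosses are below 0.

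The members with the largest differences were also set against Ptprc, a gene of all leukocytes. This comparison and the one with control 1 alone were chosen after the values were seen, so the values are a description with no test. With each array's Ptprc deviation subtracted, Trem2 was 1.63 higher in the knockouts, Lyz1 1.18, Lyz2 1.16, Itgax 0.57, Mrc1 0.56 and Ms4a7 0.51. Tyrobp was at -0.01 and Csf1r at 0.07 on this scale, with overlap. The subtraction lowers every member's difference by that of Ptprc, 0.21, so it leaves their order as it was. Ptprc itself read 0.48 higher in control 1 than the mean of controls 2 and 3. Subtracting it lowers control 1 against controls 2 and 3 in every member, which by itself lessens overlap through control 1. On this scale Lyz1 read 0.04, 0.11 and -0.14 among controls and 0.59, 1.58 and 1.38 among knockouts. Trem2 kept a raised control 1, with controls at 0.55, -0.22 and -0.33 and knockouts at 1.30, 1.93 and 1.66.

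The wider macrophage programme was read from 7 further lists with 94 genes, 80 of them tested, and 0 passed over all genes by limma; at an unadjusted p under 0.05 there were 19 higher and 4 lower, where 6.69% and 6.13% of all genes were called in those directions. Class II antigen presentation had 7 of 7 genes above 0 (47.1% of all genes), 6 higher without overlap (9.04% of all genes) and a median difference of 0.46. The invariant chain gene Cd74 was at 0.44 ± 0.10 (adjusted p = 0.199) and the peptide-loading gene H2-DMb1 at 0.38 ± 0.08 (adjusted p = 0.172). Among monocyte chemokines Ccl8 was at 1.59 ± 0.30 (adjusted p = 0.156) and Ccl4 at -0.27 ± 0.09, and the list median was 0.09.

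Activation products had members on both sides, with a list median of 0.05. The cytokine gene Il1b was at -0.84 ± 0.21 (adjusted p = 0.225) and Chil3, a chitinase-like protein of alternatively activated macrophages and neutrophils, at -1.15 ± 0.23 (adjusted p = 0.181). Both were lower in all 3 knockouts than in all 3 controls. The largest difference of the list was that of the chemokine gene Ccl17, at 1.33 (adjusted p = 0.345), with the lectin gene Clec10a at 0.63 and the chemokine gene Cxcl9 at 0.50. These 3 were named after their values were seen. Of this list 8 of 18 genes were not tested, Tnf, Il6, Arg1 and Il10 among them. In the list of resident macrophages and efferocytosis, Vsig4, a complement receptor, was at 0.44 ± 0.08 (adjusted p = 0.156) and the scavenger receptor gene Marco at -0.28 ± 0.05 (adjusted p = 0.155), with 9 genes above 0 and 7 below. Vsig4 was dim, with a knockout mean of -4.38 against detection limits of -4.72 and -4.64 in knockouts 2 and 3. Over the other settings its difference ran from 0.17 to 0.50. The transcription factor gene Irf4 did not clear background in the controls. It entered the test only through the knockouts, where its probe was well above background on all 3 arrays. Its difference therefore cannot count as support for a rise. In the main setting its knockout mean stood 2.09-fold above a bound for the controls, and it did not pass (adjusted p = 0.212). That bound was set by the detection limit of each control array or the probe's own level where that was higher. It took no account of the higher detection limits of knockouts 2 and 3, and it did not hold in every setting. The log2 difference of Irf4 was 0.30 with normexp and quantile normalisation and 0.59 with the slide row blocked. Some other settings gave larger differences than the main one, and all were above 0. Csf2rb, a shared cytokine receptor chain, was at 0.59 ± 0.15, and the list of ligands and transcription factors that holds Irf4 and Csf2rb had a median of 0.09. The integrin activator gene Fermt3 was at 0.61 ± 0.18 and Vav1 at 0.34 ± 0.12 in the signalling list (median 0.08). The oxidase gene Ncf1 was at 0.33 ± 0.10 and the lysosomal protease gene Lgmn at -0.12 ± 0.08 in the oxidase and lysosome list (median 0.01). None of these passed.

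Markers of other cells were read beside the members, and their part in the members' differences was not tested. Dendritic cell markers, which share Itgax and class II genes with macrophages, had 6 of 7 genes above 0 and a median of 0.63, with 0 passing. Their medians were 0.38, -0.21 and -0.25 in the controls and 0.41, 0.62 and 0.50 in the knockouts. Their summed linear signal ran from 181.4 to 191.4 in the controls and from 187.6 to 192.9 in the knockouts, and Xcr1 was not well above background. Such a sum follows the brightest genes of a list. Cd209a and Ccr7, at control means of -1.97 and -3.06, added little to it. Cd209a was at 0.88 ± 0.26 (adjusted p = 0.275) and Ccr7 at 0.69 ± 0.21 (adjusted p = 0.289), and without control 1 both passed, at 1.18 (adjusted p = 0.0454) and 0.95 (adjusted p = 0.0429). T and NK cell markers had 9 of 13 above 0 and a median of 0.33, with control 1 at 0.23, knockout 1 at 0.04 and a summed signal of 10.9 to 11.6 in the controls and 11.2 to 11.9 in the knockouts. Cd2 was at 0.58 ± 0.23 and Gzma at -0.41 ± 0.10. B and plasma cell markers had a median of -0.01 over 5 of 10 genes tested, with Mzb1 at 0.64 ± 0.11, Jchain at 0.87 ± 0.33 and a summed signal of 1.53 to 2.13 in the controls and 1.96 to 2.97 in the knockouts.

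Neutrophils also express lysozyme M, CD11b and Fc receptors. Their calprotectin genes went the other way, with S100a8 at 0.61, 0.17 and 0.22 in the controls and -1.24, -2.72 and -2.21 in the knockouts (-2.39 ± 0.37, adjusted p = 0.115) and S100a9 at -2.34 ± 0.39. Of 8 neutrophil genes tested 4 were above 0 and 4 below, with 0 passing and a list median of -0.003. The summed signal was 143.5 to 144.9 in the controls and 138.7 to 143.4 in the knockouts. S100a8 and S100a9, at control means of 0.34 and 2.20, made up little of that sum. Ngp and Mmp8 were not well above background on any array. Adipocyte markers, which follow fat on a kidney, had medians of 0.47, -0.55 and 0.10 in the controls and -1.39, -1.86 and 0.57 in the knockouts. The order among the knockouts was unlike that of the members. As in most members, control 1 was the highest control, here in 7 of 8 genes (29.1% of all genes). Their summed signal was 40.0 to 68.2 in the controls and 21.9 to 63.9 in the knockouts, with Retn at -1.64 ± 0.47 and Car3 at -0.99 ± 0.41. Erythroid medians were 0.19, -0.02 and -0.17 in the controls and 0.02, -0.86 and -0.999 in knockouts 1, 2 and 3. Control 1 was the highest control in 5 of the 6 genes tested (29.1% of all genes). The summed signal was 519.3 to 669.8 in the controls and 295.1 to 590.0 in the knockouts, with Hbb-bt at -0.77 ± 0.32 and Hba-a1 at -0.69 ± 0.31. Of the 6 erythroid genes tested 4 were below 0 and 2 above, Epb42 at 0.69 and Slc4a1 at 0.05. Of the mast cell list 3 of 8 genes were tested, with Tpsb2 at 0.02 ± 0.08. Mcpt4 was not well above background on any knockout array and entered the test only through the controls. Its control mean stood 1.099-fold above a knockout bound set as for Irf4.

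Fibroblast and pericyte markers also had a raised control 1, with list medians of 0.33, 0.09 and -0.48 in the controls and 0.17, 0.40 and 0.04 in the knockouts. Lum was at 0.49 ± 0.20 and Col1a1 at 0.46 ± 0.30, both overlapping. Endothelial markers had array medians between -0.08 and 0.05, with Egfl7 at 0.07 ± 0.04 and Tek at -0.13 ± 0.08. Nephron markers had a median difference of -0.02, with Scnn1g at -0.31 ± 0.18 and Slc12a3 at -0.15 ± 0.11.

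**Figure D4:**
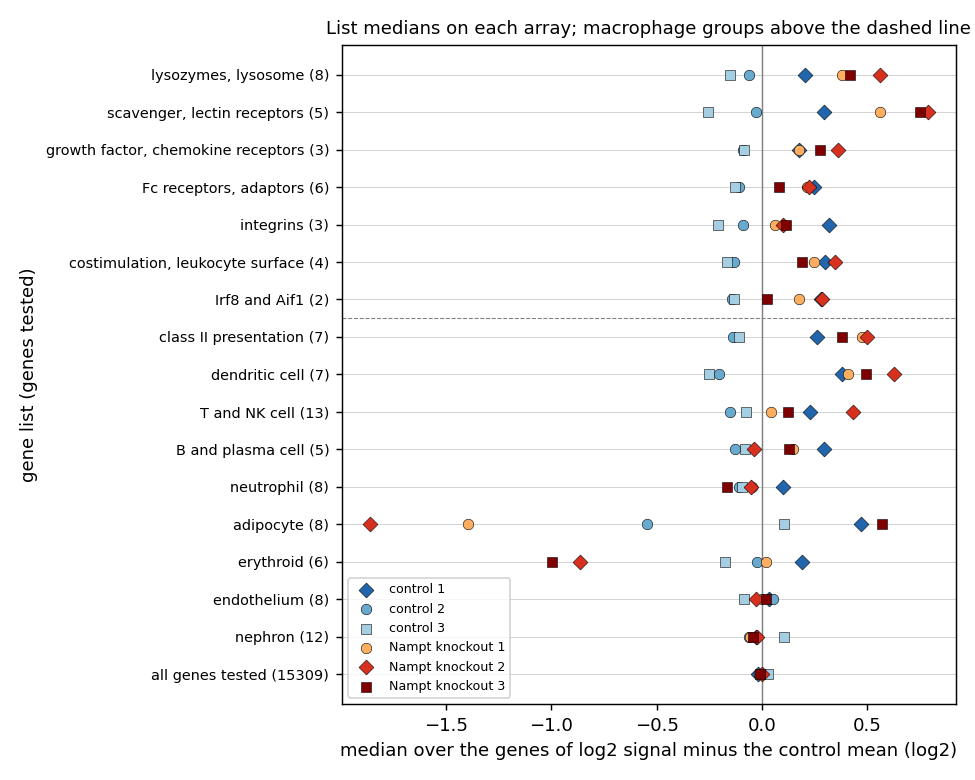
Median over each list's tested genes of the normalised log2 signal minus the control mean (horizontal axis, log2), for 7 groups of the macrophage and myeloid genes (above the dashed line), other lists and all genes tested; each point is 1 array and the number of genes is in brackets. The lysozyme and scavenger receptor groups have all 3 knockouts above all 3 controls, whereas control 1 lies among or above the knockouts for Fc receptors and integrins.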

How the data were processed

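Spot intensity came from Agilent Feature Extraction 10.7.1.1, as the submitters' processing notes name it. Per the file headers, that software subtracted background and removed spatial trends inside each array, and left arrays unscaled against each other. The 0 or 1 flag of each spot was used as deposited. A further table that the authors deposited gives a linear ratio: each processed signal over 1 constant per array, matched here within 1% for nearly all of the probes above 1.

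Outlier spots (92 to 151 an array) were dropped, log2 signals averaged by probe, and the 75th percentile of 55681 probes taken off array by array. No spot was saturated, and 57.3% to 63.3% were well above background. A probe stayed if every array of a group had it well above background (32948 probes). RefSeq accessions of GRCm38.p6 named 28026 probes; the array design uses mm9. Each gene took its brightest kept probe. limma 3.58.1 (R 4.3.3) compared the groups over 15309 genes, with no other term, at a Benjamini-Hochberg adjusted p under 0.05, after a trial on simulated data. Tables, plots and the alignment used pandas 2.3.3, matplotlib 3.10.9 and Biopython 1.88. The 3 animals a group limit precision.

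The members and lists were chosen with earlier results of these data known. Values of each array are given for members that passed, those without overlap, the 8 largest differences and the brightest of each role; others were added after their values were seen. Other lists show the 2 genes with the smallest p. Alternatives covered normalisation, filters, probe rules, variance models, blocks and leaving out each array. Normexp used median spot signals.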

Additional observations from a re-analysis of the deposited data

How the results depend on the processing

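The members' median difference of 0.28 ran from 0.19 to 0.41 over all alternatives, and from 0.23 to 0.41 when 1 array was left out. Of the 31 members, 23 kept their direction throughout. The count of members without overlap (14) was 14 to 23 with 1 array left out, the 23 without control 1, where 15.0% of all genes did not overlap in that direction. That share was 9.04% with all arrays and 11.7% to 16.0% with 1 left out. The count of all genes called (26) became 11 with quantile normalisation, 77 with no filter, 57 with a trended and robust variance, 338 with array weights, 16 with the slide row blocked and 0 to 57 with 1 array left out. Members called (1) became 0 with normexp, the filter on all 6 arrays (Siglec1 untested), the trended and robust variance and the slide row blocked. At an unadjusted limma p under 0.05 in either direction these settings gave 15, 15, 15 and 5 members. Of all genes they gave 2035, 1903, 1998 and 1562, out of 14596 tested with the filter on all 6 arrays and 15309 otherwise. In the main setting 15 members and 1962 of all genes were below that p. Array weights called 8 members (2.21% of all genes), and leaving out 1 array called 0 to 1.

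Whether the labels' replicate numbers pair the animals could not be settled from these values. Deviations of same-numbered arrays correlated at 0.10, -0.10 and -0.03 over genes, which are not independent. For differently numbered arrays the correlations ran from -0.09 to 0.12. With the replicate block limma called 0 genes and 0 members, with 1636 genes and 16 members at an unadjusted p under 0.05.

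Some differences changed sign. With the slide row blocked Cx3cr1 was at 0.079, Cd14 at -0.042, Tpsb2 at -0.13, Hba-a1 at 0.019 and Slc12a3 at 0.054. With array weights Cd14 was at -0.044 and Itgb2 at 0.031. Cd84 was at -0.040 and Tpsb2 at -0.0032 with normexp, and Tpsb2 at -0.0019 with quantile normalisation. Other probes gave -0.49 for Siglec1 and -0.060 for Itgam. With 1 array left out Cd14 ran from -0.012 to 0.18, Fcgr1 from -0.20 to 0.057, Itgb2 from -0.16 to 0.10, Irf8 from -0.047 to 0.15 and Tpsb2 from -0.021 to 0.10. The causes were not tested. Signal close to background limits Siglec1, Vsig4, Irf4 and Mcpt4.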
